A study of Mus musculus with 4 samples.

Results

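Frat1, its paralog Frat2 and 8 further genes of canonical Wnt signalling were followed in dendritic cells grown from the bone marrow of C57BL/6 mice. The listed genes are Frat1, Frat2, Gsk3a, Gsk3b, Axin1, Axin2, Apc, Ctnnb1, Tcf7l2 and Lrp6. A gene was represented by probe sets (groups of array probes summarised as 1 value) annotated with its symbol alone, and where a gene had several, the brightest one on average was kept. This found 9 of the 10 genes, among 22180 genes with such a probe set. Gsk3a, which encodes the alpha form of the kinase GSK3, has no value here, because its 1 listed probe set carries a second symbol. All 9 passed the filter on low values, which left 14652 genes for testing. Frat1 was selected on its measured difference between sulforaphane and DMSO in these same arrays, and the others were chosen by their place in the pathway. The comparison asks whether the difference in Frat1 has company among the partners of GSK3 and beta-catenin.

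Both groups were cells harvested on day 7 of culture and stimulated with 100 ng/ml lipopolysaccharide (LPS, a bacterial activator of TLR4) for 1 h. Before LPS, the sulforaphane group received 0.3 µM of this isothiocyanate in DMSO for 2 h, and the control group DMSO alone. Each group had 2 arrays. The labels do not state whether replicates came from separate mice or cultures, so p-values measure only the spread between these arrays, which may be technical.

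In canonical Wnt signalling, a complex of the scaffolds AXIN and APC with the kinases GSK3 and CK1 phosphorylates beta-catenin and marks it for destruction. When a Wnt ligand joins Frizzled and LRP6 at the membrane, the complex is held back, and beta-catenin accumulates and works with TCF/LEF factors on their target genes. FRAT proteins bind GSK3 and compete with AXIN for it. In dendritic cells, beta-catenin is known for a part in tolerance, and GSK3 for shaping cytokine output after Toll-like receptor stimulation.

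The dendritic cell label was set against marker genes. All 9 dendritic cell markers with a probe set lay above the filter, among them the integrin Itgax at 11.26 to 11.33 (log2 value), and their summed level was 13.02 and 13.14 in DMSO and 13.09 and 13.12 in sulforaphane. Of these 9 markers 2 were higher and 5 lower without overlap (43.6% of all genes in either direction), with a median difference of -0.34, and none passed the test. The factors Irf4, at 10.05 and 10.10 in DMSO and 9.24 and 9.17 in sulforaphane, and Batf3, at 7.13 and 7.35 against 6.54 and 6.67, were at least 1.5-fold lower without overlap, as were 1.49% of all genes. All 8 macrophage and monocyte markers with a probe set were also above the filter, with summed levels of 13.41 and 13.45 in DMSO and 13.32 and 13.31 in sulforaphane. All 8 neutrophil and granulocyte markers were measured too, at 12.81 and 13.05 in DMSO and 13.08 and 12.93 in sulforaphane, and all 7 mast cell markers with a probe set, at 10.95 and 10.99 against 10.81 and 10.91. Above the filter were 3 of 6 T and NK cell, 4 of 5 B cell, 5 of 6 plasmacytoid dendritic cell and 5 of 7 stromal markers, and the T cell marker Cd3g and the B cell marker Ms4a1 were under it. The summed macrophage, mast cell, plasmacytoid dendritic cell (9.52 and 9.51 against 9.38 and 9.49) and T and NK cell markers (5.68 and 5.66 against 5.53 and 5.62) were lower on both sulforaphane arrays than on either DMSO array. The brightest plasmacytoid marker was Irf8, at 8.69 and 8.58 against 8.37 and 8.48. Of the 5 tested plasmacytoid markers 3 differed below 0 and 2, Bst2 and Tcf4, above. The brightest T and NK cell marker, Cd8a, lay at 3.68 to 3.92, and of the 3 tested 2 differed below 0 and 1 above. The part that these marker differences had in the results below was not tested. In such mixed RNA, fewer cells of a type and less RNA per cell cannot be told apart. DMSO replicate 1 stood apart from the other arrays, with an interquartile range of 3.41 against 3.61 to 3.62. Across all genes 19 passed the test, 0.13% of those tested, 9 higher (0.0614%) and 10 lower (0.0683%), and 412 (2.81%) were at least 1.5-fold apart without overlap. A second quantile normalization moved this split to 34 higher and 72 lower, and centring on the median of the tested genes to 41 and 102. With any 1 of the 4 arrays left out 0 genes passed by limma, while 1036 to 2850 had an unadjusted p under 0.05.

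The promoters of Frat1 and Frat2 are shown because both genes were higher on both sulforaphane arrays and because the sequences share a stretch next to the start of transcription. The genes lie side by side on chromosome 19, on opposite strands, with 0 listed genes between them in RefSeq (GRCm38.p6). The 100 bases upstream of each RefSeq start are given below from RefSeq's GRCm38.p6 assembly, 5′ to 3′ on the gene's own strand, at chr19:41829870-41829969 on the plus strand for Frat1 and chr19:41848133-41848232 on the minus strand for Frat2. Capitals mark the aligned block of 45 bases.
Frat1: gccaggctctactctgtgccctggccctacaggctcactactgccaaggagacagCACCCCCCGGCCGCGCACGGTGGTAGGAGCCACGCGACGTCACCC
Frat2: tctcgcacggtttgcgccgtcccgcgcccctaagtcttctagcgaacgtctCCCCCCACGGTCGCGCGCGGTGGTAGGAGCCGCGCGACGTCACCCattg
Within the block 40 of 45 bases (88.9%) were identical without gaps, and 27.4% of the 201 bases further upstream in the same ungapped alignment. The block was drawn as far as at least 85% of bases matched, so this contrast follows in part from that rule. The last 13 bases before the Frat1 start open a run of at least 63 identical bases that goes on into the transcribed part of both genes, as far as the window reaches, 50 bases after the Frat1 start.

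Short motifs were searched on both strands in the 250 bases before each start. The letters TGACNNNGC, the core of the antioxidant response element bound by NRF2, the factor that sulforaphane activates, were found on the reverse strand at position -12 of Frat1 and -16 of Frat2. This match overlaps ACGTCA, part of the cyclic AMP response element, at -9 and -13, and both lie in the capitals above. TGACNNNGC occurred in 10.2% and ACGTCA in 6.47% of the 32851 promoter windows in the table. Of the other members with a window, Ctnnb1 held TGACNNNGC in 1 of its 2 windows and Tcf7l2 held ACGTCA in 1 of 2. Gsk3a, Gsk3b and Axin2 held neither. The windows of Nqo1 and Osgin1, NRF2 targets described below, did not hold TGACNNNGC, and CTTTGAT, a TCF/LEF motif found in 3.21% of all windows, was in none of the members' windows. These matches describe letters in a short window.

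Frat1 was higher on both sulforaphane arrays than on either DMSO array. On the log2 scale it measured 5.68 and 5.65 on the DMSO arrays and 6.97 and 6.99 on the sulforaphane arrays. The arrays of each group lay within 0.03 of each other, and the groups were far apart. The means were 5.67 ± 0.019 (SD, n = 2) and 6.98 ± 0.017, a difference of 1.31 ± 0.10 SE, or 2.49-fold. The difference was the 9th highest of the 14652 genes. Since this contrast prompted the choice of Frat1, these values are a description. With any 1 array left out the difference was 1.30 to 1.33.

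Frat2, the paralog that also binds GSK3, was higher in the same direction but did not pass the test. It measured 3.31 and 3.88 in DMSO and 4.38 and 4.28 in sulforaphane. The groups did not overlap, but the DMSO arrays were 0.58 apart, with DMSO replicate 1 the low one. The difference was 0.73 ± 0.20 SE (95% interval 0.25 to 1.22), a fold of 1.66, with an adjusted p of 0.221 by limma over all genes. It was 0.45 without DMSO replicate 1 and 1.02 without DMSO replicate 2. Frat2 was 1 of 194 genes (1.32%) that were at least 1.5-fold higher without overlap, and the 80th highest difference. Its mean exceeded 60.9% of all probe sets, against 76.1% for Frat1, so it was the dimmer signal. Within an array, the log2 ratio of Frat1 to Frat2 was 0.58 higher after sulforaphane, a difference that was not tested. The paralogs share transcribed sequence at least next to their starts, probe sequences were not used here, and the part that hybridisation of one transcript to the other's probes had in these values was not tested.

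**Figure D1:**
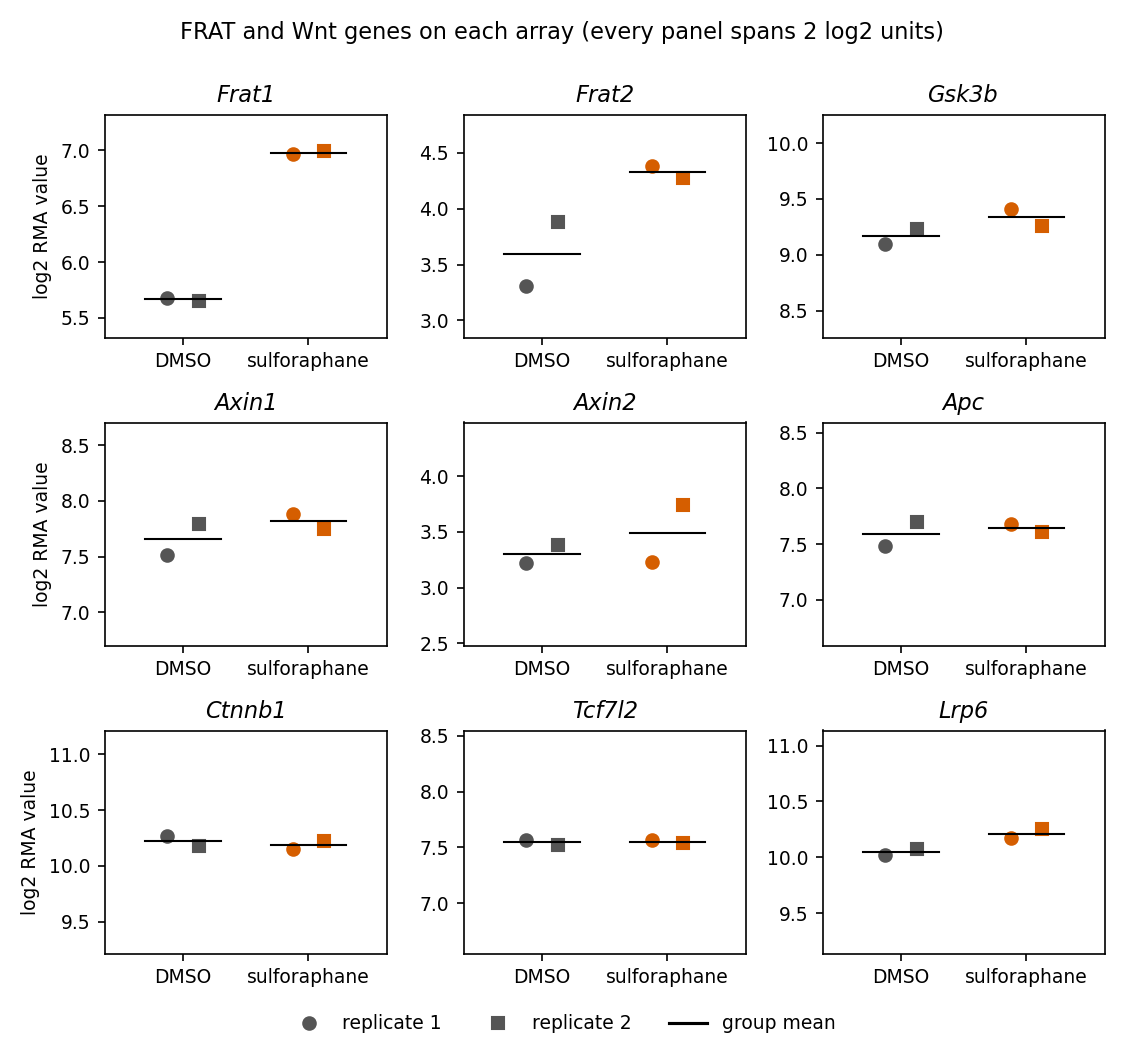
Log2 RMA value (vertical axis, 2 log2 units in every panel) of each of the 9 genes on each array. Circles are replicate 1, squares replicate 2, and the lines are group means of 2 arrays. Frat1 is at 5.65 to 5.68 in DMSO and 6.97 to 6.99 in sulforaphane, while Tcf7l2 and Ctnnb1 lie level.

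The genes on either side of the FRAT pair did not share its direction as a group. They were taken by order on the chromosome, 3 protein-coding genes on each side, and 5 of the 6 were tested. Arhgap19 measured 7.43 and 7.52 in DMSO and 7.71 and 7.54 in sulforaphane, a difference of 0.15. Rrp12, a ribosome biogenesis factor next to Frat2, measured 6.97 and 7.11 against 6.77 and 6.72, a difference of -0.30. The groups of these genes did not overlap, in opposite directions, as was seen in 43.6% of all genes in either direction. Slit1, a guidance ligand, differed by 0.038, Exosc1, an RNA exosome subunit, by -0.047 and the glycolytic enzyme Pgam1 by -0.25, with overlap in all 3. None of the 5 passed by limma (adjusted p 0.353 to 0.939), and Rrp12 alone had an unadjusted p under 0.05, as did 13% of all genes.

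**Figure D2:**
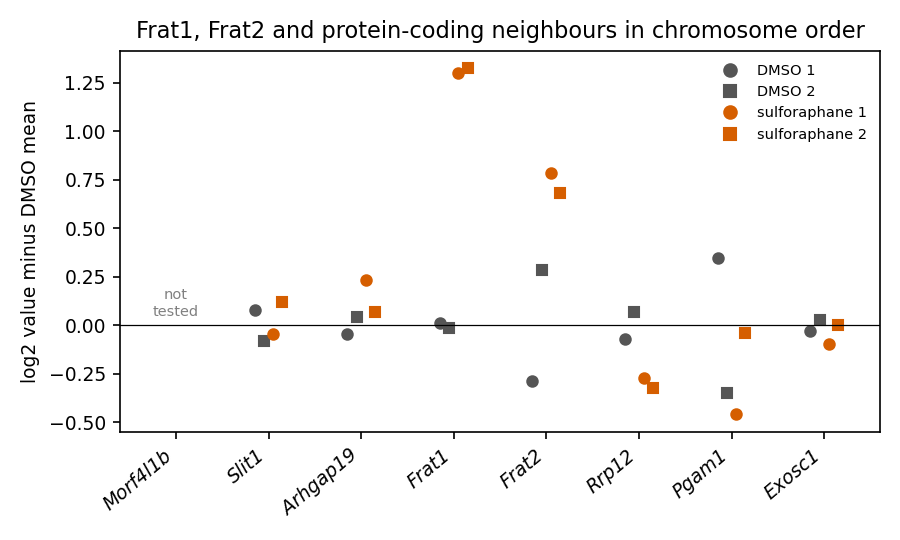
Log2 value on each array minus the DMSO mean of the gene (vertical axis) for Frat1, Frat2 and their protein-coding neighbours in chromosome order, not to genomic scale. Grey points are DMSO and orange points sulforaphane. The orange points of Frat1 and Frat2 stand above all grey ones, while those of Rrp12 stand below.

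GSK3 and the scaffolds of the destruction complex did not pass the test. Gsk3b, the beta form of the kinase, measured 9.10 and 9.23 in DMSO and 9.41 and 9.26 in sulforaphane. Its groups did not overlap, but sulforaphane replicate 2 was only just above DMSO replicate 2. The difference was 0.17 ± 0.12 SE (95% interval -0.12 to 0.46, adjusted p = 0.619 by limma). Axin1, the scaffold that FRAT displaces from GSK3, measured 7.52 and 7.79 in DMSO and 7.89 and 7.75 in sulforaphane. The groups overlapped, with DMSO replicate 1 the lowest array. The difference was 0.16 ± 0.14 SE (-0.17 to 0.50, adjusted p = 0.691), but 0.026 without DMSO replicate 1. Apc, the other scaffold, was at 7.48 and 7.70 in DMSO and 7.68 and 7.61 in sulforaphane, again with DMSO replicate 1 the lowest. Its difference was 0.052 ± 0.12 SE (-0.25 to 0.35, adjusted p = 0.910), and -0.059 without DMSO replicate 1.

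Axin2 encodes a scaffold of the same complex and is itself a widely used target of beta-catenin. It measured 3.22 and 3.38 in DMSO and 3.23 and 3.74 in sulforaphane. The groups overlapped, and sulforaphane replicate 2 alone was high. The difference was 0.19 ± 0.19 SE (-0.27 to 0.64, adjusted p = 0.746), and -0.067 without sulforaphane replicate 2. Its mean exceeded only 53.4% of all probe sets, near the median of 3.23. A second, dimmer Axin2 probe set measured 3.01 and 2.77 in DMSO and 2.93 and 2.94 in sulforaphane, a difference of 0.047.

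Beta-catenin and its DNA-binding partner differed by less than the spread between replicates. Ctnnb1, which encodes beta-catenin, measured 10.27 and 10.18 in DMSO and 10.15 and 10.23 in sulforaphane. The groups overlapped, and the difference was -0.036 ± 0.11 SE (95% interval -0.30 to 0.23, adjusted p = 0.933 by limma). Tcf7l2, a TCF/LEF factor through which beta-catenin acts on genes, measured 7.57 and 7.53 in DMSO and 7.57 and 7.54 in sulforaphane. All 4 arrays of Tcf7l2 lay close together, and the difference was 0.0058 ± 0.11 SE (-0.25 to 0.26, adjusted p = 0.992). Transcript level does not report the amount of beta-catenin protein, which the pathway controls by degradation, and protein was not analysed here.

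Lrp6, the Wnt co-receptor at the cell surface, was slightly higher without passing the test. It measured 10.02 and 10.07 in DMSO and 10.17 and 10.25 in sulforaphane. Both sulforaphane arrays lay above both DMSO arrays by a small margin. The difference was 0.17 ± 0.11 SE (95% interval -0.098 to 0.43, adjusted p = 0.589). A dimmer Lrp6 probe set measured 4.72 and 4.56 in DMSO and 5.05 and 5.37 in sulforaphane, also without overlap, with a larger difference of 0.57. Both Lrp6 probe sets were higher in sulforaphane, by different amounts.

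Of the 8 genes other than Frat1, 0 passed by limma, 1 (Frat2) had an unadjusted p under 0.05, and 13% of all genes tested did so. Their groups did not overlap in 3 of 8 (37.5%), all higher, against 43.6% of all genes in either direction and 24% in the higher direction. The share in either direction is close to that of all genes. A difference above 0 was seen in 7 of 8, against 54.2% of all genes, with a median of 0.16 against 0.018 over all genes. That median was 0.065 without DMSO replicate 1, the array that was lowest for Frat2, Gsk3b, Axin1, Axin2, Apc and Lrp6, and 0.094 without sulforaphane replicate 1. Leaving Frat2 aside, the upper ends of the 95% intervals of the brightest probe sets ran from 1.17-fold for Ctnnb1 to 1.56-fold for Axin2. That of Frat2 reached 2.33-fold. A miss of the threshold with 2 arrays per group does not show that a gene was unchanged, and with so few arrays the smallest two-sided p that exact permutation allows is 0.333.

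**Figure D3:**
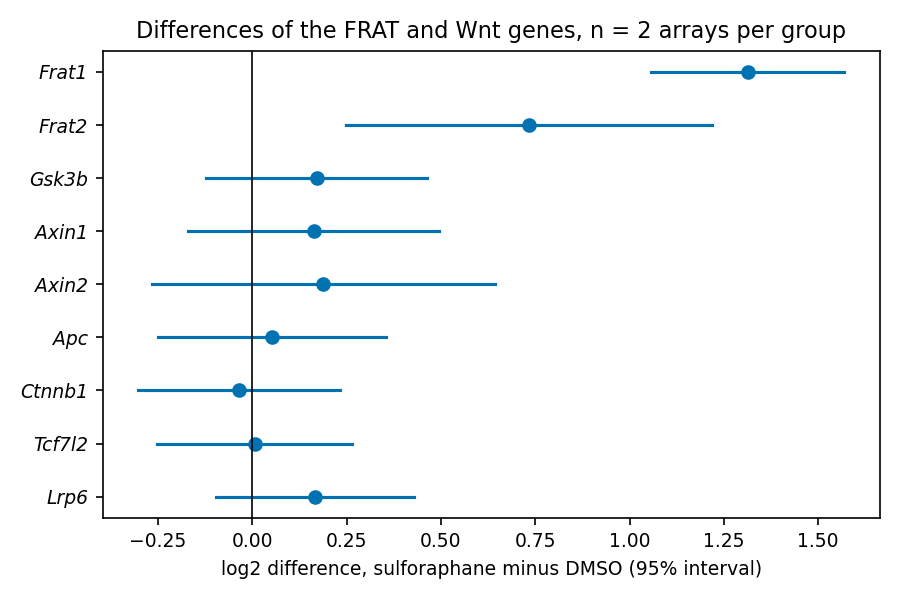
Log2 difference, sulforaphane minus DMSO (horizontal axis), with its 95% interval from limma, for the 9 genes (n = 2 arrays per group). Points are the fitted differences. The interval of Frat2 runs from 0.25 to 1.22, and those of the 7 genes under it include 0.

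The genes whose 4 arrays most resembled those of Frat1 were found by the Euclidean distance between log2 values centred on each gene's mean. The 5 nearest named genes were Eid3 (distance 0.19), Klhl21 (0.20), Gdap10 (0.22), Panx1 (0.23) and Proz (0.30). Klhl21, a substrate adaptor of CUL3 ubiquitin ligases, measured 6.56 and 6.44 in DMSO and 7.58 and 7.71 in sulforaphane. Panx1, a membrane channel, measured 7.12 and 7.30 against 8.57 and 8.76. With 4 arrays this likeness mostly restates a similar difference between the groups, and none of the 5 is a gene of the Wnt lists.

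Beyond the members, 9 lists of the wider pathway were examined, with 140 tested genes in all once members and repeats are set aside. By limma 0 of the 140 passed over all genes, where 0.13% passed, and 16 had an unadjusted p under 0.05, as 13% of all genes did. Their median difference was -0.020, and the groups did not overlap in 39.3%, against 43.6% of all genes. Other settings did call some of them. Myc and Bcl3 passed as lower with the filter at the 60th percentile (where 1.3% of all genes passed) or quantile normalization once more (0.723%). They also did so with averaged probe sets (0.233%), an intensity trend (1.7%) or centring on the tested genes (0.976%). Nfatc2 passed as lower in 3 of these settings, Lgr4 as higher with the 60th percentile filter (adjusted p = 0.0438), and Ppard as higher with the intensity trend (adjusted p = 0.0315).

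No Wnt ligand passed the test. Of 25 genes for ligands, R-spondins and their secretion 17 passed the filter on low values. Their differences were above 0 in 4 and below 0 in 13, with a median of -0.062. The filter of 2.91 lies under the median of all probe sets (3.23), so passing it does not show expression. With the filter at the 60th percentile 4 of the 17 were left, with a median of -0.16. Of the 17 genes, those with the smallest p were Rspo1, an R-spondin (difference -0.37), Wnt4 (0.19) and Wnt1 (-0.24). None of these had an adjusted p under 0.480. Rspo1 measured 4.56 and 4.16 in DMSO and 4.17 and 3.80 in sulforaphane, and its groups overlapped. Wnt4 was dimmer, at 3.35 and 3.30 in DMSO and 3.53 and 3.50 in sulforaphane. So was Wnt1, at 3.44 and 3.12 against 3.13 and 2.95. Without DMSO replicate 1 the differences of Rspo1 and Wnt1 were -0.17 and -0.078, and the list median was -0.027. Wnt3a, the classical ligand of the pathway, differed by -0.094, and Wls, which carries Wnt proteins to the cell surface, by -0.018.

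Among 15 tested receptors and regulators of their turnover, 9 lay above 0 and 6 below, with a median of 0.16. That median was 0.10 without DMSO replicate 1, 0.049 without DMSO replicate 2 and 0.032 with averaged probe sets. Lgr4, a receptor for R-spondins that strengthens Wnt signals, measured 4.39 and 4.44 in DMSO and 5.21 and 5.07 in sulforaphane. Its difference of 0.72 ± 0.11 SE came close to the threshold without passing (adjusted p = 0.0822 by limma). Fzd5, a Frizzled receptor, measured 6.04 and 5.70 against 6.50 and 6.60, a difference of 0.68 ± 0.15 (adjusted p = 0.152). Both sulforaphane arrays of each gene were above both DMSO arrays. Lgr4 and Fzd5 were the only 2 of the 15 that were at least 1.5-fold higher without overlap, against 1.32% of all genes. Ror2, an alternative Wnt receptor, differed by -0.28, also without overlap, and by -0.15 without DMSO replicate 1.

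Of 10 tested Wnt inhibitors 4 lay above 0 and 6 below, with a median of -0.14. The groups did not overlap in 5 (50%), all lower, against 43.6% of all genes in either direction and 19.5% in the lower direction. Tpbg, a membrane protein that restrains Wnt signalling, measured 5.04 and 4.92 in DMSO and 4.17 and 4.54 in sulforaphane. Its difference was -0.63 ± 0.15 SE (adjusted p = 0.189). Sfrp1, a secreted Frizzled-related decoy, measured 3.16 and 3.36 against 2.87 and 2.72, a difference of -0.47 ± 0.13 (adjusted p = 0.217). Dkk3, of the Dickkopf family, had means of 3.34 in DMSO and 2.99 in sulforaphane, a difference of -0.35 ± 0.11 (adjusted p = 0.265). Sfrp1 and Dkk3 were close to the filter of 2.91, with both sulforaphane values of Sfrp1 under it, and none of the 10 passed. Sfrp1 was among the 5 without overlap. Only 2 of the 10 were left with the filter at the 60th percentile, where the median was -0.36. The list median was -0.074 over 16 genes with no filter, and -0.27 over 8 genes with averaged probe sets.

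None of 25 cytoplasmic transducers passed, with 16 above 0 and a median of 0.037. The scaffolds that relay the signal from Frizzled, Dvl2 (0.29) and Dvl3 (0.25), and Rnf146, a ubiquitin ligase that removes AXIN (0.28), had the smallest p, with adjusted p of 0.417 to 0.516, and without DMSO replicate 1 Dvl3 differed by 0.11. In the nucleus, 8 of 19 TCF/LEF partners lay above 0 (median -0.048). The Groucho corepressors Tle4 and Tle3 differed in opposite directions, by 0.46 ± 0.13 SE and -0.34 ± 0.11, and the coactivator Bcl9l by -0.25, none passing (adjusted p 0.240, 0.284 and 0.404). Tle4 measured 7.82 and 8.07 in DMSO and 8.35 and 8.47 in sulforaphane. Among 11 adhesion partners of beta-catenin the median was 0.076, with Ctnnal1 at 0.39, Arvcf at 0.55 and Jup, the desmosomal relative of beta-catenin, at -0.25 (adjusted p 0.216 to 0.438). Ctnnal1 measured 2.89 and 2.94 in DMSO, close to the filter of 2.91, and 3.31 and 3.31 in sulforaphane. Arvcf measured 3.28 and 3.39 in DMSO and 3.68 and 4.08 in sulforaphane. The adhesion median was 0.0050 without DMSO replicate 1.

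Genes known as beta-catenin targets did not share a direction. Of 18 tested 8 lay above 0 and 10 below, with a median of -0.020. Myc, a growth regulator that LPS also induces, measured 8.94 and 8.91 in DMSO and 7.90 and 7.93 in sulforaphane, a difference of -1.01 ± 0.11 SE whose adjusted p of 0.0510 just missed the threshold. Ccnd1, cyclin D1, measured 8.76 and 8.65 against 8.23 and 8.24, a difference of -0.47 ± 0.11 (adjusted p = 0.179). Ppard, a nuclear receptor, was higher in value at 9.60 and 9.55 against 8.78 and 9.08, a difference of 0.65 ± 0.14 (adjusted p = 0.148). The groups did not overlap in any of these 3, named for the smallest p, and their directions differ. Over all 18 the groups did not overlap in 2 higher and 6 lower. That is 44.4% in all against 43.6% of all genes, where 24% were higher and 19.5% lower.

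Around GSK3 itself, 8 of 12 tested kinases and regulators upstream lay above 0 (median 0.095). Pik3ca and Pik3cd, catalytic subunits of PI3 kinase, differed by 0.30 and 0.24, and the kinase Sgk1 by 0.28 (adjusted p 0.378 to 0.538). Without DMSO replicate 1 the median was 0.012, and Pik3cd and Sgk1 differed by 0.14 and 0.45. Of 22 tested genes whose proteins GSK3 phosphorylates 6 lay above 0 and 16 below (median -0.082, and -0.19 without DMSO replicate 1). Their groups did not overlap in 1 higher and 7 lower, 36.4% in all against 43.6% of all genes, where 24% were higher and 19.5% lower. Besides Myc, the smallest p were those of Bcl3, an IkB family protein, at 9.32 and 9.31 in DMSO and 8.34 and 8.39 in sulforaphane (-0.95 ± 0.11 SE, adjusted p = 0.0510), and of Nfatc2, a calcium-regulated factor, at 7.98 and 7.93 against 7.29 and 7.22 (-0.70 ± 0.11, adjusted p = 0.0791). GSK3 acts on these proteins after translation, and the values here are of transcripts.

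As a check that the treatment reached the cells, 9 tested NRF2 targets were all higher without overlap, against 24% of all genes, with a median of 0.75. Osgin1, an oxidative stress response gene, measured 7.46 and 7.71 in DMSO and 9.14 and 9.17 in sulforaphane and rose by 1.57 ± 0.13 SE (adjusted p = 0.0322 by limma). Hmox1, heme oxygenase, and Nqo1, a quinone reductase, differed by 1.03 and 0.90 (adjusted p 0.0510 and 0.0597). The differences of this list ran from 0.18 to 1.57, and only that of Osgin1 exceeded the 1.31 of Frat1. Frat1 was chosen on that value, so the comparison is a description. A part of NRF2 in the Frat1 difference was not tested.

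**Figure D4:**
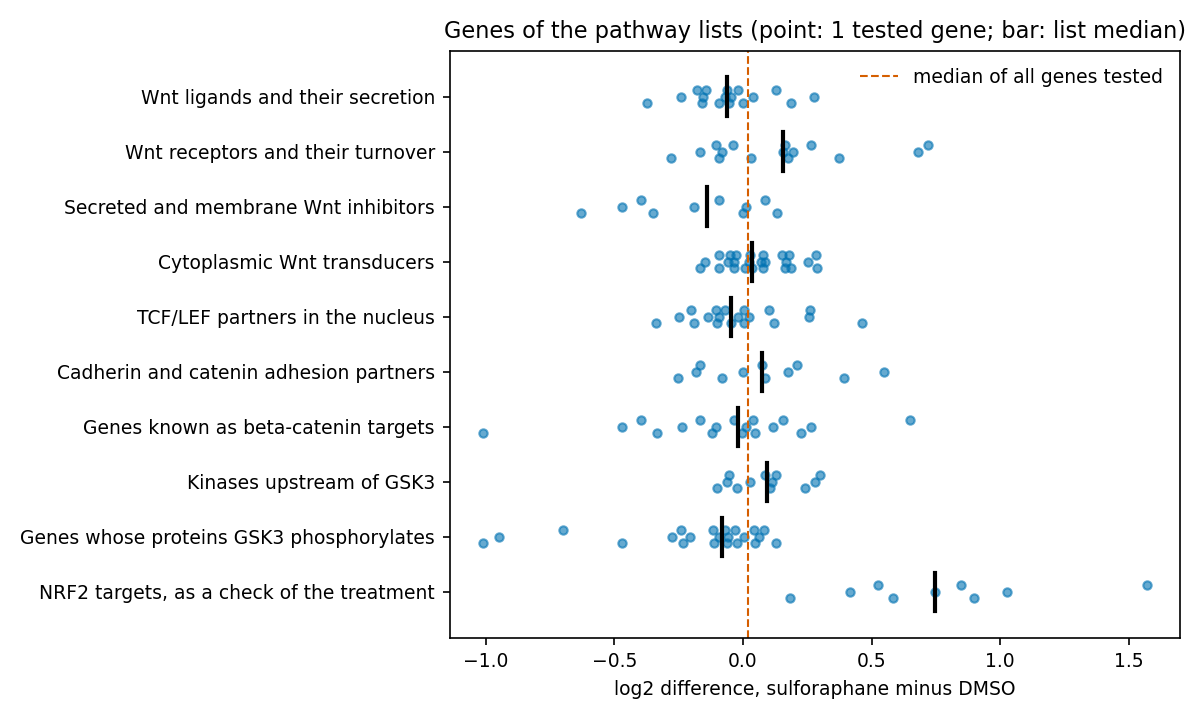
Log2 difference, sulforaphane minus DMSO (horizontal axis), of each tested gene (point) in the 9 pathway lists and the NRF2 target list, with list medians as black bars and the median of all genes tested (0.018) as a dashed line. The NRF2 targets lie to the right, with a median of 0.75, while the medians of the Wnt and GSK3 lists run from -0.14 to 0.16.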

How the data were processed

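Expression was measured on 4 Affymetrix arrays hybridised with biotin-labelled cRNA, per the labels' protocols. The authors deposited log2 values that per the submitters' processing notes come from RMA (R 2.15.1). RMA corrects background, quantile-normalizes the arrays and summarises probe sets. The table does not state the base of the logarithm, and 2 was inferred from RMA's usual output and the values. Of 41345 probe sets 23521 had 1 gene symbol in the platform annotation, and those with several (1814) or none were not used. Genes whose mean exceeded 40% of the probe sets (2.91) were tested with limma 3.58.1 in R 4.3.3, without a replicate block, with Benjamini-Hochberg adjustment over all 14652 genes and a threshold of 0.05. The fit had 2 residual and 4.02 prior degrees of freedom. It was also run on data simulated with normal errors of the kind it assumes, which cannot show how well its p-values hold for these arrays. Errors of differences are moderated standard errors. Depth does not apply to arrays, whose number limits the precision.

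The members and lists were chosen with earlier results of these data known. Values were named for every member, for up to 3 tested genes per list with the smallest unadjusted p, and for the 5 genes most like Frat1; Itgax, Irf4, Batf3, Ms4a1, Cd3g, Wnt3a, Wls and the chromosomal neighbours were named outside that rule, the first 7 after their values were seen. Marker levels were summed on the linear scale and returned to log2. The promoter alignment block was extended from the start as far as at least 85% of bases matched, after the sequences were seen, as were the motifs. Alternatives were other filters, centring, quantile normalization once more, averaged probe sets, every probe set, a replicate block, eBayes with a trend or robust estimation, and each array left out.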

Additional observations from a re-analysis of the deposited data

How the results depend on the processing

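The 19 genes past the threshold became 138 with the filter at the 60th percentile, 106 with a second quantile normalization, 34 with averaged probe sets, 249 with an intensity trend, 143 with centring on the median of the tested genes (chosen after seeing the data) and 8 with a replicate block. Leaving out an array gave 0 to 0 genes, in fits where the lone array of a group is assumed to vary like the others, and 520 to 798 genes (412 with all arrays) at least 1.5-fold apart without overlap. Frat1 kept its direction in every setting but missed the threshold with the replicate block (1.31, adjusted p = 0.0510 by limma). With each array left out its difference was 1.30 to 1.33. Frat1 was chosen on this same contrast, so these values describe it and are no test of it. The labels do not say whether same-numbered arrays belong together. Deviations of same-numbered arrays correlated at -0.081 over genes, which with 2 arrays per group cannot decide whether they were paired. The sign of 4 small differences turned: Tcf7l2 was -0.023 with the second quantile normalization and -0.057 with centring on the tested genes, Apc -0.011 with the latter, and with an array left out Apc ran from -0.059 to 0.16, Axin2 from -0.067 to 0.44, Ctnnb1 from -0.081 to 0.0092 and Tcf7l2 from -0.015 to 0.027. The cause was not tested. None of the 8 members other than Frat1 passed in any setting run, and their other values kept their direction.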
